A study of Mus musculus with 2 samples.

Results

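Macrophage transcripts were present in both islet libraries, and 9 of 10 macrophage marker genes stood at a higher level in islets of mice that carry Ins2-Cre on a floxed Srsf2 background than in islets of floxed mice without Cre. The 10 markers were taken by gene symbol from the deposited table of 23652 genes: Cd68, Adgre1, Csf1r, C1qa, C1qb, C1qc, Lyz2, Tyrobp, Fcer1g and Cd53. All 10 were listed, and all 10 had a mean level of at least 1 FPKM (reads per kilobase of gene length and scaled to the total of reads on genes). Of the 10666 genes with that mean level, 21.1% stood higher in the Ins2-Cre library. Among the shortest of these genes (206 to 1323 bases), which include 7 of the markers, 67.6% did. The study profiled RNA from pancreatic islets of mice aged 7 months. The control genotype is SRSF2 flox/flox, and the other genotype, called the knockout here, is SRSF2 flox/flox Ins2-Cre, so both groups carry the floxed alleles. Cre recombinase is driven by an insulin promoter, which is active in beta cells. Each genotype had 1 library, and reads on genes came to 17412828 (control) and 15098659 (knockout). The number of mice behind each library is not given in the sources used here.

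Islets hold a resident population of macrophages that sit beside blood vessels and endocrine cells, take up debris and granule material, and present antigen. Their survival depends on the receptor encoded by Csf1r, and they sense their surroundings through receptors that signal by the adaptors encoded by Tyrobp and Fcer1g. Macrophages are also a main source of C1q, the recognition protein of the classical complement pathway, which tags dying cells and immune complexes.

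With 1 library per group no difference has a replicate check, no p-value was computed, and each value describes these 2 libraries. Intervals beside a ratio are 95% exact conditional binomial intervals of the read counts, and they cover counting error alone. In whole islets, fewer cells of a type and less RNA per cell cannot be told apart. The targeted gene Srsf2 had 2296 control reads and 1209 knockout reads, or 37.2 and 22.6 FPKM. Its log2 difference was -0.71, and 20.2% of all measured genes had a lower one. In place of a test, a gene is called higher or lower when it differs by at least 2-fold after 0.5 is added to each FPKM value, a step that understates differences of low genes.

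The C1q genes encode the A, B and C chains that assemble in equal numbers into C1q. They lie side by side on the minus strand of chromosome 4 between 136880126 and 136898844, a span of 18719 bases in GRCm38. C1qa had the highest level of all 10 markers, with 1152 control reads (61.1 FPKM) and 1177 knockout reads (72.0 FPKM), a ratio of 1.18 (1.09 to 1.28). C1qb stood at 289 and 327 reads (15.0 and 19.6 FPKM), a ratio of 1.30 (1.11 to 1.53). C1qc stood at 189 and 214 reads (9.63 and 12.6 FPKM), a ratio of 1.31 (1.07 to 1.60). All C1q chains were thus slightly higher in the knockout library, none by 2-fold. Per length, C1qa stood at 4.07 times the level of C1qb in the control and 3.67 times in the knockout, so the transcripts of the chains were unequal in both libraries.

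The next group holds effector and signalling genes. Lyz2 encodes lysozyme M, which cuts bacterial cell walls, and lies on chromosome 10 (117277541 to 117282272). It had 565 and 570 reads, or 30.7 FPKM in the control and 35.7 FPKM in the knockout, a ratio of 1.16 (1.03 to 1.31). Its near copy Lyz1, the lysozyme of Paneth cells, had 26 and 15 reads, and how reads shared by these copies were assigned is not given in the sources used here. Tyrobp encodes DAP12, an adaptor with an immunoreceptor tyrosine-based activation motif (ITAM) that pairs with TREM2 and other receptors. It had 81 and 107 reads (8.09 and 12.3 FPKM), a ratio of 1.52 (1.13 to 2.06). Fcer1g encodes the Fc receptor gamma chain, an ITAM adaptor of antibody receptors. It had 70 and 75 reads (6.11 and 7.55 FPKM), a ratio of 1.24, with an interval of 0.880 to 1.74 that includes equal levels.

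Cd68 and Cd53 showed the largest ratios among the markers. Cd68 encodes a sugar-rich membrane protein of lysosomes related to the LAMP proteins and lies on chromosome 11 (69664213 to 69666170). It had 34 control reads and 73 knockout reads, or 1.57 and 3.88 FPKM, a ratio of 2.48 (1.63 to 3.84). Cd53 encodes a tetraspanin found across leukocytes, B cells included, and lies on chromosome 3 (106758861 to 106790149). It had 49 and 112 reads, or 1.004 and 2.65 FPKM, a ratio of 2.64 (1.87 to 3.77). Both were past 2-fold, with log2 differences of 1.08 and 1.07. Adgre1 encodes F4/80, the surface receptor by which mouse macrophages are commonly stained. It was the lowest of the markers, with 53 and 80 reads (0.909 and 1.58 FPKM) and a ratio of 1.74 (1.22 to 2.51).

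Csf1r differed in direction from the other 9 markers. It encodes the receptor tyrosine kinase for the growth factors CSF1 and IL-34 and lies on chromosome 18 (61105572 to 61131139). It had 260 control reads and 151 knockout reads, or 3.85 and 2.58 FPKM, a ratio of 0.670 (0.544 to 0.822). Its log2 difference was -0.50, and 37.3% of all measured genes had a lower one. In the order of levels, C1qa, Lyz2, C1qb, C1qc, Tyrobp and Fcer1g took the first 6 places in both libraries. Csf1r stood at place 7 in the control and 9 in the knockout, Cd68 at 8 and 7, Cd53 at 9 and 8, and Adgre1 was last in both.

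**Figure D1:**
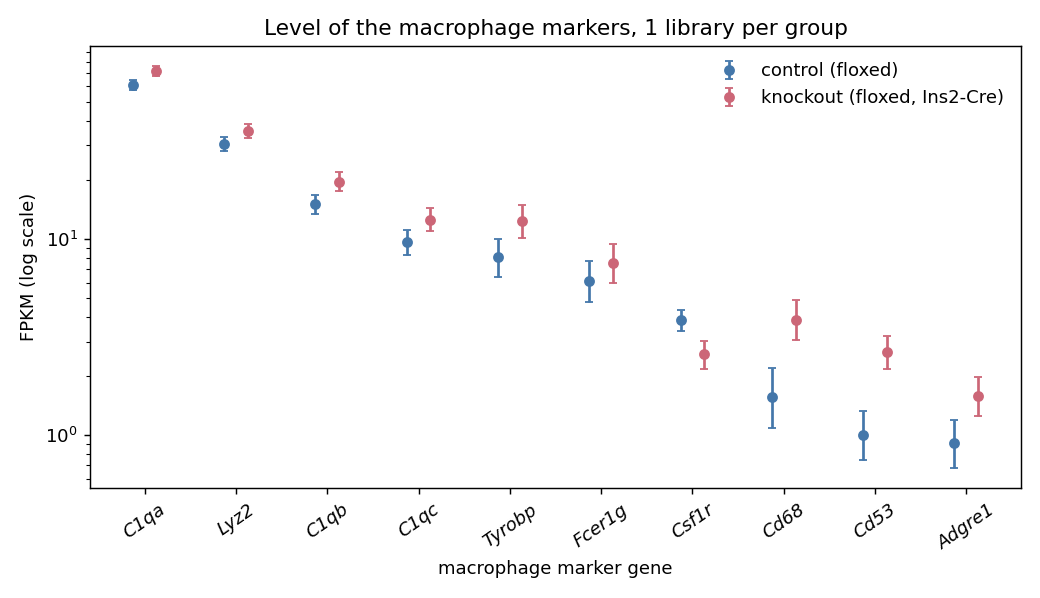
FPKM of each macrophage marker (log scale) in the control and the knockout library, 1 library per group, with bars for exact Poisson 95% intervals of the reads. C1qa is highest at 61.1 and 72.0 FPKM, Adgre1 is lowest, and Csf1r is the marker whose knockout value lies below its control value.

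Windows at the transcription start show sequence that several markers have in common. PU.1, the protein product of Spi1, is the transcription factor that macrophage genes most rely on, and it binds DNA around a GGAA core. RefSeq windows of GRCm38.p6 from 250 bases before to 50 bases after the start were read for 6 markers: Cd68, C1qb, C1qc, Lyz2, Fcer1g and Cd53. Windows of Adgre1, Csf1r, C1qa and Tyrobp were not used here. The letters GGAAGT, searched on both strands, were found in 5 of the 6, against 23.8% of the 32851 windows in the table. The longer GAGGAAGT, which contains GGAAGT, was found in 2 of the 6 (C1qc and Cd53), against 3.20% of windows. The letters GAGGAA, which overlap it, were found in 4 of the 6, against 28.3% of windows. A match is a description of the letters and says nothing of binding in these islets. The windows of Cd68 (chr11:69666121-69666420) and Cd53 (chr3:106790100-106790399) are shown because these genes passed the 2-fold rule. Those of Lyz2 (chr10:117282223-117282522) and C1qc (chr4:136892865-136893164) are shown as markers that did not pass it but hold the letters. All 4 are written 5′ to 3′ on the minus strand, the strand of these genes, with GGAAGT or its reverse complement ACTTCC in capitals.
Cd68: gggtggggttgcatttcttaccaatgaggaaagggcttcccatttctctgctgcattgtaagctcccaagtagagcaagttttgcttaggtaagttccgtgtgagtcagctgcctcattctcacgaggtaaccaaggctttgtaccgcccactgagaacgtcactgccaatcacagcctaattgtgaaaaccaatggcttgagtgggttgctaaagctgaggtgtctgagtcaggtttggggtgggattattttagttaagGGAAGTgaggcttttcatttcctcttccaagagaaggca
Cd53: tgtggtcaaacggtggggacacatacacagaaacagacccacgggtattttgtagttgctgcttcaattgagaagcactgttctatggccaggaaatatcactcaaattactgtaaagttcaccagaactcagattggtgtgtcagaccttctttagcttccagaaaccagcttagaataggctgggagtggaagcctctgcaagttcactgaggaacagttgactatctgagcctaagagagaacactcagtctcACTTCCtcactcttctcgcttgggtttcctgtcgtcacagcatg
Lyz2: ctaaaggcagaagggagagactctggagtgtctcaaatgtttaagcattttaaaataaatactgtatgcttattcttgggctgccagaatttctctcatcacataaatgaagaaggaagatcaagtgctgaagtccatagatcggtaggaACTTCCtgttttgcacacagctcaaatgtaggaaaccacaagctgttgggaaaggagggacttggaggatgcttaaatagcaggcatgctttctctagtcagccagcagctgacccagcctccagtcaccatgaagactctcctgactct
C1qc: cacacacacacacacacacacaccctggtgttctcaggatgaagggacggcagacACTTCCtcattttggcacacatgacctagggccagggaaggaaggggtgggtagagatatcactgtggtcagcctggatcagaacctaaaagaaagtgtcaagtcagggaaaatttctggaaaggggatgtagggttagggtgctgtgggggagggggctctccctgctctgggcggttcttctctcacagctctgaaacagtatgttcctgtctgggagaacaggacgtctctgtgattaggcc
The match lay 12 bases past the start in Cd68 and 7 past it in Cd53, and at -100 in Lyz2 and -195 in C1qc, counted at its first base. C1qb, also below 2-fold, held the letters at -53, and the window of Fcer1g, below 2-fold as well, held none of the searched letters. Spi1 itself stood at 50 and 54 reads (1.44 and 1.80 FPKM), a ratio of 1.25 (0.832 to 1.87).

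Set against all genes, the markers lay toward the higher side. Of 10666 genes with a mean of at least 1 FPKM, 21.1% had a difference above 0, and 9 of 10 markers did, of which Fcer1g stood at -0.00 once the trend with gene length was removed. The median log2 difference was 0.37 over the markers and -0.36 over all measured genes, and 7.09% of all measured genes lay above the markers' median. At least 2-fold higher were 2 of 10 markers, against 1.57% of all genes, and at least 2-fold lower were 0 of 10, against 6.32%. With the median of all genes set to 0, the same counts of markers were 2 and 0, against 3.22% and 1.36% of all genes, and the markers' median became 0.73. On that relative scale Cd68 stood at 1.45, Cd53 at 1.43, Tyrobp at 0.94, Adgre1 at 0.93 and Csf1r at -0.14, and C1qa, C1qb, C1qc, Lyz2 and Fcer1g lay between 0.58 and 0.74. In the authors' deposited table, where size factors set the scale, Cd53 had a log2 fold change of 1.78 with an unadjusted p-value of 0.0364, Cd68 had 1.69 and Csf1r had -0.20. The adjusted p-value in the authors' deposited table was 1 for each of the 10 markers, and 0.496% of its 16528 genes were under 0.05.

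**Figure D2:**
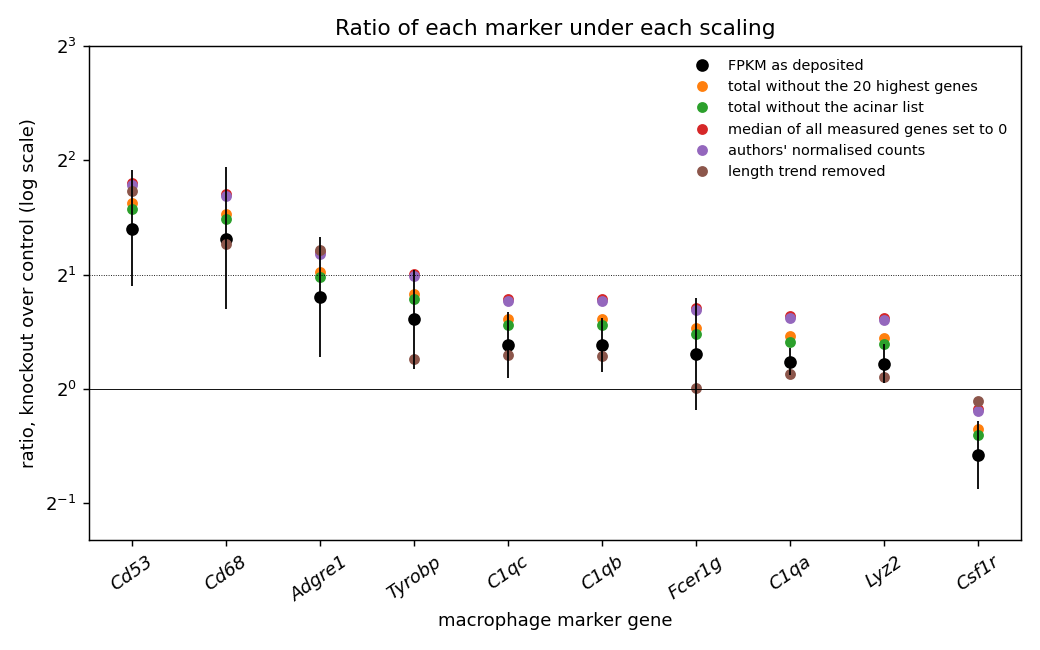
Ratio of knockout over control for each marker (log scale) from FPKM as deposited, with its 95% counting interval, and from 5 other scalings. Cd53 and Cd68 lie above 2 under all 6, Csf1r lies below 1 under all 6, Adgre1 lies above 2 under 4 and Tyrobp under 1, and all but Csf1r lie above 1, Fcer1g at 1.01 with the length trend removed.

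As a group the 10 markers took 0.0157% of control reads (exact binomial interval 0.0152% to 0.0163%) and 0.0191% of knockout reads (0.0184% to 0.0198%). Their FPKM summed to 138 in the control and 171 in the knockout, a ratio of 1.24. C1qa and Lyz2 carried most of that sum, at 44.3% and 22.2% of it in the control and 42.3% and 20.9% in the knockout. The same knockout library held more reads of exocrine tissue: 16 genes of acinar cells, the enzyme-secreting cells around islets, took 1.44% of control reads and 12.8% of knockout reads. With acinar genes left out of the library total, the summed ratio of the markers was 1.40.

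Ratios between markers within a library do not depend on how the libraries are scaled. Among C1qa, C1qb, C1qc, Lyz2, Tyrobp and Fcer1g, 0 of 15 pairs changed their ratio between the libraries by more than counting error, and the changes ran from 0.764 to 1.31. For C1qb over C1qc the change was 0.999 (0.771 to 1.30). Cd68 increased relative to the summed reads of the other 9 markers by a factor of 2.07 (1.35 to 3.21), and relative to C1qa, which is of similar length, by 2.10 (1.37 to 3.28). Cd53 increased relative to the other 9 by 2.22 (1.57 to 3.18). Csf1r decreased relative to the other 9 to 0.527 (0.425 to 0.652), and its intervals against each of the 9 lay apart from 1. Such ratios keep the trend with gene length described below, and Csf1r is the longest marker. With that trend removed, log2 differences were -0.06 for Csf1r, -0.00 for Fcer1g, 0.10 for Lyz2, 0.13 for C1qa and 0.24 to 1.37 for the other markers. Adgre1 and Csf1r have listed lengths of 3350 and 3875 bases, and Adgre1 over Csf1r changed by 2.60 (1.71 to 3.97). Over all 45 pairs, 22 had an unadjusted counting interval without 1, among them the 9 pairs of Csf1r. So beyond counting error, and with gene length not accounted for, the 10 markers did not differ by 1 common factor between these libraries.

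Gene length moved with the difference across all genes, and the markers differ in length from 575 to 3875 bases. Spearman's rho of length and log2 difference was -0.55 over 10666 genes of these libraries. Genes were split by length into 10 bins of near equal size. The bin of the shortest genes, 206 to 1323 bases, had a median difference of 0.17, with 67.6% above 0 and 7.50% at least 2-fold higher. It contains 7 markers (Cd68, C1qa, C1qb, C1qc, Lyz2, Tyrobp and Fcer1g), which ran from 0.22 to 1.08. Cd53, at 2802 bases, was in a bin with a median of -0.30, where 0.845% of genes were 2-fold higher. Adgre1, at 0.56, was in a bin with a median of -0.36, and Csf1r, at -0.50, in one with -0.43. With the length trend removed, Cd53 stood at 1.37, Cd68 at 1.04, Adgre1 at 0.94, C1qb and C1qc at 0.28, Tyrobp at 0.24, C1qa at 0.13, Lyz2 at 0.10, Fcer1g at -0.00 and Csf1r at -0.06. Their median was 0.26 on that scale, against -0.00 for all genes, and 2 of 10 markers were at least 2-fold higher, against 2.01% of all genes.

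**Figure D3:**
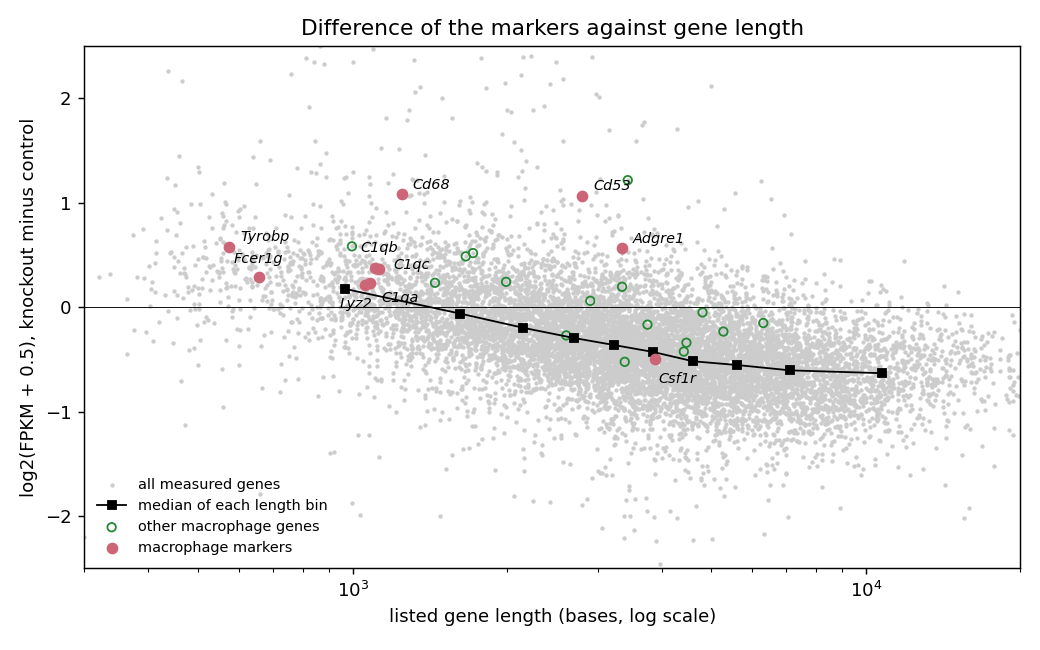
Difference in log2(FPKM + 0.5), knockout minus control, against listed gene length (log scale) for all measured genes (grey, with a few beyond the axis range), other macrophage genes (open) and the markers (filled, named). Squares are medians of 10 bins of genes by length, plotted at the median length. Cd53, Adgre1 and Cd68 lie well above the line, and Csf1r lies close to it.

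Other macrophage genes gave a mixed picture. Of 28 genes listed, 16 were measured, with a median log2 difference of 0.00. Above 0 were 8 of the 16, against 21.1% of all measured genes. Among the 16, 1 was at least 2-fold higher and 0 were 2-fold lower, against 1.57% and 6.32% of all measured genes. Of these 16 genes 11 are 2000 bases or longer. Once the trend with length was removed, the median of the 16 was 0.39, against 0.26 for the markers and -0.00 for all genes. The gene past 2-fold was Irf8, a transcription factor of macrophages, dendritic cells and B cells, with 56 and 147 reads and a ratio of 3.03 (2.21 to 4.20). Apoe, the lipid carrier apolipoprotein E, was the highest of the list at 66.9 and 76.6 FPKM. Ctss, a lysosomal protease that trims the invariant chain, stood at 23.5 and 27.7 FPKM, a ratio of 1.18, equal to that of C1qa. Ly86 had a ratio of 1.57, Cd14, the endotoxin co-receptor, 1.54, and Ms4a7 1.53. Mpeg1, a pore-forming protein of phagocytes, had 433 and 271 reads, a ratio of 0.722 (0.618 to 0.842), close to that of Csf1r. Cx3cr1, the fractalkine receptor of tissue macrophages, had 109 and 81 reads, a ratio of 0.857 (0.635 to 1.15). Also lower as deposited were Lyve1, with 514 and 366 reads, a ratio of 0.821 (0.716 to 0.941), and Sirpa, with 2612 and 2033 reads, at 0.898 (0.847 to 0.952). Axl stood at 0.823 (0.677 to 0.999) and Cybb at 0.956 (0.749 to 1.22). With the length trend removed, log2 differences were 0.00 for Lyve1, 0.06 for Mpeg1 and 0.26 for Cx3cr1. On that scale Axl stood at 0.30, Sirpa at 0.42 and Cybb at 0.46. Over the 26 measured macrophage genes, markers included, the rho of length and difference was -0.58, all points sharing the same 2 libraries, and over the 10 markers alone it was 0.08. All 12 macrophage genes under 2000 bases were above 0, and 5 of the 14 longer ones were. Of all measured genes, 67.6% were above 0 at 206 to 1323 bases and 42.4% at 1324 to 1886 bases. In each bin of longer genes 29.7% or less were. Aif1, a common macrophage stain (IBA1), had 0 reads in both libraries. If its reads were counted in full, that allows up to 0.166 FPKM in the control and 0.192 in the knockout. Vsig4 also had 0 reads in both, and Cd163 had 0 and 1. Near Aif1 on chromosome 17, C2 had 0 reads in both libraries, Cfb 3 and 6, and C4b 2 and 11. Whether reads of that region were counted in full was not tested.

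As deposited, the lists of partners of the markers had medians from -0.39 to 0.30, against -0.36 for all genes. With the length trend removed, the medians were 0.25 for CSF receptors and ligands, 0.24 for ITAM partners, 0.24 for complement, 0.50 for family relatives and 0.41 for secreted factors, against 0.26 for the markers. Of 5 measured genes among 12 CSF receptors and ligands, 0 were past 2-fold in either direction, with a median of -0.39. Csf1, the main ligand of the receptor, had 400 and 196 reads (5.19 and 2.94 FPKM), a ratio of 0.565 (0.474 to 0.672). Il34, its other ligand, had 18 and 20 reads, and Flt3l, the highest of this list by the mean of both libraries, had 4.43 and 4.89 FPKM. Of 6 measured among 25 receptors and kinases that work with the ITAM adaptors, 0 were past 2-fold, with a median of 0.12. Ptpn6, the phosphatase SHP-1 that restrains ITAM signals, was the highest of them at 19.4 and 15.4 FPKM, and Trem2, a receptor that pairs with DAP12, had 3 reads in each library. Of 9 measured among 16 other complement genes, 0 were past 2-fold, with a median of 0.08. C1ra and C1s1, the proteases that join C1q in the C1 complex, had ratios of 0.702 (0.467 to 1.05) and 0.802 (0.605 to 1.06). Serping1, which encodes their inhibitor, stood at 39.1 and 50.5 FPKM, a ratio of 1.29 (1.20 to 1.40). Among 17 family relatives of the markers 10 were measured, with a median of 0.00, and 1 was past 2-fold: Cd37, a leukocyte tetraspanin, with 30 and 103 reads and a ratio of 3.96 (2.61 to 6.16). Lamp1, a lysosomal relative of Cd68, stood at 325 and 328 FPKM, a ratio of 1.01, and the widely expressed tetraspanin gene Cd9 at 47.8 and 30.8 FPKM. Of 29 secreted factors of macrophages 8 were measured, with a median of 0.30. Il1b, which encodes the inflammatory cytokine interleukin 1 beta, was past 2-fold, at 33 and 89 reads, a ratio of 3.11 (2.06 to 4.79). Arg1, the arginase gene, was the highest of these at 19.2 and 28.3 FPKM.

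Several genes found across leukocytes, and several of B cells, were higher in the same library. Of 9 measured pan-leukocyte genes (13 listed), 5 were at least 2-fold higher and 0 lower, against 1.57% and 6.32% of all measured genes. Their median was 1.03. The 5 were Cd37, Cd52 (60 and 133 reads), Rac2 (66 and 164), Arhgdib (91 and 178) and Coro1a (176 and 328). Itgb2, an integrin chain gene of myeloid cells and lymphocytes, had 71 and 50 reads. Of 5 measured B cell genes (11 listed), 4 were at least 2-fold higher, against 1.57% of all measured genes, with a median of 1.29. Among the 4 was Ms4a1, which encodes CD20, at 28 and 170 reads. With the length trend removed, 4 of the 9 pan-leukocyte genes and 5 of the 5 B cell genes were at least 2-fold higher. Of all measured genes 2.01% were on that scale. The B cell list summed to 601 control reads and 1446 knockout reads, a ratio of 2.77 per library total (2.52 to 3.06), against 1.21 (1.15 to 1.28) for the 10 markers. Of the B cell reads, 358 and 770 came from Cd79a alone, with a ratio of 2.48 (2.19 to 2.82). Relative to the summed B cell reads, Cd53 changed by 0.950 (0.664 to 1.38) and Cd68 by 0.892 (0.579 to 1.40), whereas C1qa changed by 0.425 (0.374 to 0.482) and Csf1r by 0.241 (0.192 to 0.303). The part of B cells in the level of Cd53 was not tested.

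**Figure D4:**
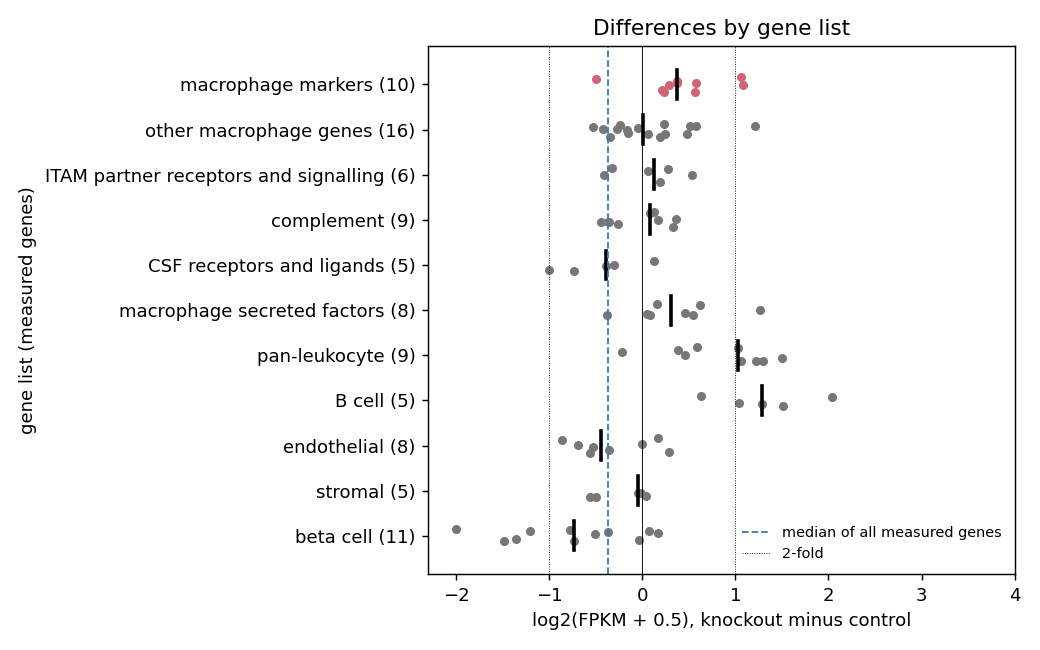
Difference in log2(FPKM + 0.5), knockout minus control, of each measured gene (points) by list, with the list median (bar), the median of all measured genes (dashed) and 2-fold limits (dotted). The markers' median of 0.37 lies above that of other macrophage genes at 0.00, an order that turns round with the length trend removed (0.26 and 0.39), and below those of the pan-leukocyte list at 1.03 and the B cell list at 1.29.

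Lists of other cells that use Fcer1g, Tyrobp or Cd53 held few measured genes. Of 13 T and NK cell genes 0 reached a mean of 1 FPKM, and together they had 106 and 137 reads, a ratio of 1.49 per library total (1.15 to 1.94). The 13 neutrophil genes had 23 and 16 reads together, with 5 of them at 0 in both libraries, and S100a9 had 3 and 0. Of 9 mast cell genes 6 had 0 reads in both, the mast cell receptor gene Fcer1a among them, and 3 were measured with a median of -0.30. The mast cell list summed to 433 and 218 reads, of which Kit, a growth factor receptor gene that other cells use too, had 276 and 99. Of 10 dendritic cell genes the single measured one, Itgax, differed by -0.34 (117 and 73 reads), and the list summed to 280 and 228 reads. With the length trend removed, Itgax stood at 0.15 and the mast cell median at 0.08. Among non-immune lists, 8 measured endothelial genes had a median of -0.44, 5 stromal genes -0.04 and 11 beta cell genes -0.74. The median of all measured genes was -0.36. With the length trend removed, the endothelial, stromal and beta cell medians were -0.02, 0.49 and -0.67. On that scale the markers' median was 0.26 and that of all measured genes -0.00. Of 15 measured acinar genes 14 were at least 2-fold higher, against 1.57% of all measured genes. The part of acinar tissue in the markers' levels was not tested.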

How the data were processed

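Islet RNA was taken up in Trizol and a Lifetech library protocol was followed, per the labels' protocols. Read counts per gene were deposited as whole numbers for both libraries, per the file headers, and FPKM values were deposited beside them. Recomputing FPKM from the counts, listed lengths and column totals gave the deposited value for 23652 of 23652 genes (relative tolerance 1e-06). A second table that the authors deposited gives a signal per library, the counts over size factors of 1.23 (control) and 0.816 (knockout), with the authors' fold ratio and log2 fold change. It also gives a p-value, raw and adjusted, from the authors. Bowtie2 2.4.2, DESeq and the builds mm10 and GRCm38 are named, with no role, per the submitters' processing notes. Not given in the sources used here are the counting tool, the strand setting and any filters. The start and end of all 10 markers equal those of the RefSeq table of GRCm38.p6, and no other GENCODE M21 gene shares exon bases with a marker.

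With 1 library per group no count model was fitted. Differences are log2(FPKM + 0.5), knockout minus control, over the 10666 genes whose mean FPKM was 1 or more, and ratios use no pseudocount. Changes of ratios between markers are odds ratios of reads with exact conditional 95% intervals. The length trend is a lowess curve (span 0.3) on log10 length, checked on simulated data. Without molecular identifiers, reads of the same molecule cannot be told apart, so intervals cover counting error alone. A count of 0 allows up to 3 reads. Python 3.11.15, scipy 1.17.1 and statsmodels 0.14.6 were used.

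The markers and lists were chosen with earlier results of these data known. Named genes are all markers, up to 4 genes per list past 2-fold, the highest gene of each list, Srsf2, Spi1, Csf1 and Il34. A gene of the macrophage list is not reported here. Not all that qualified are named, and other list members were named after their values were seen. Settings tried as alternatives were a pseudocount of 0.1 or 1, 4 other scalings, removal of the length trend, no minimum or a mean FPKM of 5, a 1.5-fold rule, and leaving out Cd53.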

Additional observations from a re-analysis of the deposited data

How the results depend on the processing

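The median difference of the markers, 0.37, became 0.73 with the median of all genes set to 0 and 0.74 with the authors' normalised counts, and under the other 8 alternatives it stayed between 0.26 and 0.59. The number of markers at least 2-fold higher, 2, became 0 with a pseudocount of 1 FPKM, which shrinks low genes, 0 with a minimum mean of 5 FPKM, where 6 markers are left and neither Cd68 nor Cd53 is among them, and 1 without Cd53. The number at least 2-fold lower was 0 under all 11 alternatives. The summed ratio, 1.24, became 1.63 with the median set to 0, 1.61 with the authors' normalised counts, 1.44 without the 20 highest genes, 1.40 without the acinar list and 1.15 with the length trend removed. Of 50 single ratios under 5 scalings, 35 stayed inside their counting interval. No paired analysis was possible because each group has 1 library, and for the same reason no library could be left out. Cd68, Cd53 and Adgre1 rest on 34 to 53 control reads, which limits the precision of their ratios.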

Other observations

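Secreted factors below a mean of 1 FPKM entered no count above, and 2 of them, chosen after their values were seen, differed more than any marker. Igf1, which encodes insulin-like growth factor 1, a product of macrophages among other cells, had 12 control reads and 110 knockout reads, a ratio of 10.6 (95% counting interval 5.81 to 21.1). Cxcl10, which encodes an interferon-induced chemokine, had 0 control reads and 27 knockout reads (1.62 FPKM). The lower limit of its 95% counting interval was a ratio of 7.88. With the control set to the 3 reads that a count of 0 allows, the ratio was 10.4. Other factors at this level had few reads and went both ways. Cxcl1 had 1 and 7 reads, a ratio of 8.07 (1.04 to 364), whereas Ccl9 had 17 and 4, a ratio of 0.271 (0.0664 to 0.832), and Nos2 had 9 and 0. Tnf and Il6, the inflammatory cytokine genes, had 0 reads in both libraries. Tnf lies near Aif1 on chromosome 17, where full counting of reads was not tested.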
